A study of Mus musculus with 12 samples.

Results

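Cdx2, Elf5, Gata3, Gata2, Tfap2c, Hand1, Krt7, Krt8, Krt18 and Krt19 were chosen by symbol as regulators and keratins of the trophoblast, and they are 10 of the 35976 genes in the table. RNA-seq libraries came from 6 groups of mouse embryonic stem cell (mESC) cultures, with 2 libraries in each group and 12 in all. The genotypes were PROSER1 KO+Rescue, PROSER1 KO and wildtype (WT), each sampled after 48 h in N2B27 (day 2), a serum-free medium that lets cells leave pluripotency towards a neural fate, and as mESC. All lines descend from blastocysts with TET2 fl/fl alleles and were kept without feeder cells on gelatin, as mESC in serum with LIF and inhibitors of MEK and GSK3, which N2B27 does not contain. The KO line is a single clone, edited by CRISPR with a guide in exon 1 of Proser1, and the KO+Rescue line is a clone of that line with a blasticidin-selected PiggyBac transgene for FLAG-tagged Proser1, so an effect of a clone and an effect of Proser1 cannot be told apart. The columns name the lines other than WT only by a code, which was read as KO and KO+Rescue from the titles. Nothing in the labels tells whether the 2 libraries of a group, termed biological replicates, came from cultures grown apart, so each p-value measures only their spread, which may be technical. The paper's methods describe replicate samples of each line taken at both stages, and the stages were compared here as unpaired.

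In the mouse embryo the trophectoderm is the outer epithelium of the blastocyst and the source of the placenta. Cdx2 is a homeobox factor that specifies it, Elf5 is an ETS factor of trophoblast stem cells, Gata3 and Gata2 are zinc-finger factors of the trophectoderm and its giant cells, Tfap2c (AP-2gamma) acts early in the lineage and also in pluripotent and germ cells, and Hand1 is a basic helix-loop-helix factor of giant cells and of lateral mesoderm. Keratins pair as a type II with a type I chain to form intermediate filaments, and Krt8 with Krt18 are the first keratins of the embryo, made in trophectoderm and in simple epithelia in general. Krt7 is a further type II chain and Krt19 a further type I chain of simple epithelia and trophoblast. Neither set is private to the trophoblast.

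The libraries held between 38634668 and 66450803 read pairs assigned to genes, a 1.72-fold range. Values are normalised counts, which are read pairs divided by a size factor for each library, and each fold change comes from limma on log2(normalised count + 1) over all 12 libraries, with p-values adjusted by the Benjamini-Hochberg method over the 15341 genes that averaged at least 10 normalised counts, called under 0.05. On that scale the change of a low gene is understated. Proser1 RNA had 3041 and 2994 normalised counts in KO+Rescue, 872 and 1067 in KO and 829 and 685 in WT at day 2, and 2828 and 3090 in KO+Rescue, 576 and 502 in KO and 889 and 550 in WT among mESC. RNA over the whole gene therefore marked the transgene but did not tell KO from WT (log2 0.36 ± 0.20 at day 2 and -0.38 ± 0.20 in mESC, adjusted p = 0.368 and 0.215). The stage labels held against their markers: 8 of 8 naive pluripotency genes were called lower and 6 of 6 formative genes called higher at day 2 in each genotype. Of all tested genes, 25.3 to 29.1% were called lower and 26.6 to 31.4% higher. Of 9 markers of differentiated trophoblast, Synb, Prl3d1, Tpbpa and Ctsq had no read in any library, and the summed level of the 9 was 76.3 to 96.8 normalised counts in KO+Rescue, 117 to 126 in KO and 183 to 211 in WT at day 2, and 103 to 134 in KO+Rescue, 182 to 219 in KO and 156 to 170 in WT among mESC. Only 2 of the 9 passed the filter. KO against WT called 1 of the 2 higher and 0 lower among mESC (median log2 0.60), and 0 at day 2 (-0.69). Beside these, 3.23% of all tested genes were called higher and 6.26% lower among mESC, and 1.57% and 3.64% at day 2. Ascl2 alone had 29.3 and 47.0 in KO+Rescue, 52.4 and 62.9 in KO and 96.2 and 94.2 in WT at day 2. Among mESC it had 109 and 78.4 in KO+Rescue, 131 and 139 in KO and 128 and 127 in WT, so the call higher in KO there was not that of Ascl2. Ribosomal protein genes took 16.5 to 22.2% of the normalised counts in KO+Rescue libraries, 15.4 to 18.6% in KO and 11.5 to 14.9% in WT, and the part of this difference in the results between genotypes was not tested. In cultures measured whole, fewer cells of a type and less RNA per cell cannot be told apart.

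Among the 6 transcription factors, Tfap2c had the highest mESC level per kilobase of transcript of all members, and Elf5 and Hand1 stayed at the edge of detection. Cdx2 (GRCm38 chr5:147300900-147307249) had 25.8 and 14.1 normalised counts in KO+Rescue, 42.8 and 26.2 in KO and 15.7 and 18.8 in WT at day 2. Among mESC it had 59.6 and 46.3 in KO+Rescue, 59.4 and 85.0 in KO and 127 and 131 in WT. Every mESC library lay above every day 2 library, and both WT mESC libraries lay above the 4 mESC libraries of the other lines. Among mESC limma called KO+Rescue against WT (adjusted p = 0.0348) but not KO against WT (0.155). The share of all genes whose groups stay apart was not counted. By group means the order was WT, KO and KO+Rescue mESC, then KO, KO+Rescue and WT at day 2, where KO and KO+Rescue mESC overlapped, as did KO+Rescue and WT at day 2.

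Tfap2c (chr2:172545678-172558622) had 39.9 and 67.6 normalised counts in KO+Rescue, 100.5 and 88.3 in KO and 167 and 157 in WT at day 2, against 2228 and 2281 in KO+Rescue, 2612 and 2466 in KO and 2002 and 1880 in WT mESC. The 6 groups did not overlap, but the share of all genes whose groups of 2 libraries stay apart was not counted. The order of genotypes differed between the stages, with WT highest at day 2 and lowest among mESC. Its means were 53.4 normalised counts per kilobase of transcript in WT at day 2 and 641 in WT mESC.

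Gata3 (chr2:9857078-9887953) had 3.52 and 3.76 normalised counts in KO+Rescue, 18.5 and 15.7 in KO and 9.69 and 2.90 in WT at day 2, and 17.8 and 32.1 in KO+Rescue, 51.5 and 62.0 in KO and 35.6 and 24.4 in WT mESC. KO was the highest genotype at both stages and overlapped neither of the other lines within a stage, but limma called neither difference at either stage. KO against WT gave adjusted p = 0.261 in mESC and 0.146 at day 2, and KO+Rescue against KO 0.346 and 0.0859. The day 2 values rest on 3 and 4 reads in KO+Rescue and 16 and 4 in WT, and the share of all genes whose groups stay apart was not counted. Gata2 (chr6:88193891-88207032) had 23.5 and 37.6 normalised counts in KO+Rescue, 27.3 and 17.2 in KO and 43.6 and 23.2 in WT at day 2, and 38.7 and 21.4 in KO+Rescue, 40.3 and 41.8 in KO and 46.2 and 56.0 in WT mESC. Here only WT mESC stood clear of its neighbour in the order, and every later neighbour overlapped. The ratio of Gata2 to Gata3 counts, not corrected for length, was 6.67 and 10 in KO+Rescue, 1.48 and 1.10 in KO and 4.50 and 8.0 in WT at day 2.

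Hand1 (chr11:57828713-57832147) and Elf5 (chr2:103412098-103450989) did not reach the filter, so 8 of the 10 members were tested. Hand1 had 2.35 and 1.88 normalised counts in KO+Rescue, 22.9 and 8.23 in KO and 3.63 and 2.90 in WT at day 2, and 0 and 3.56 in KO+Rescue, 2.24 and 1.35 in KO and 8.30 and 5.09 in WT mESC. The KO day 2 values rest on 31 and 11 reads, 42 in all (exact 95% Poisson interval 30.3 to 56.8), against 10 reads in WT (4.8 to 18.4), intervals that cover counting error only. In the limma fit with no filter, KO against WT at day 2 gave a log2 difference of 1.81 with an adjusted p of 0.308, so the difference did not pass, and KO+Rescue against KO gave -2.26 with 0.217. Of 7 mesoderm markers 4 were tested, and KO against WT at day 2 called 2 higher and 0 lower. Those higher were Eomes and T (log2 1.82 ± 0.25 and 1.30 ± 0.26), while the median of the 4 was 0.36, below both. Beside them, 1.57% of all tested genes were called higher and 3.64% lower. The summed level of that list of 7 was 107 to 135 normalised counts in KO+Rescue, 433 to 443 in KO and 149 to 232 in WT. Eomes, also on the list of other trophoblast genes, alone had 73.9 and 51.7 in KO+Rescue, 310 and 312 in KO and 117 and 65.2 in WT. The part of these genes in the Hand1 level was not tested.

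Elf5 had no read in the day 2 libraries of KO+Rescue and KO, which at 3 counts allows up to 3.52 and 2.82 normalised counts in the KO+Rescue libraries and 2.22 and 2.24 in the KO libraries. WT at day 2 had 2.42 and 0.725 normalised counts. The mESC libraries had 0 and 5.34 in KO+Rescue, 3.36 and 8.09 in KO and 2.37 and 6.11 in WT, from at most 6 reads a library. At this depth no difference between genotypes in Elf5 was detectable.

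**Figure D1:**
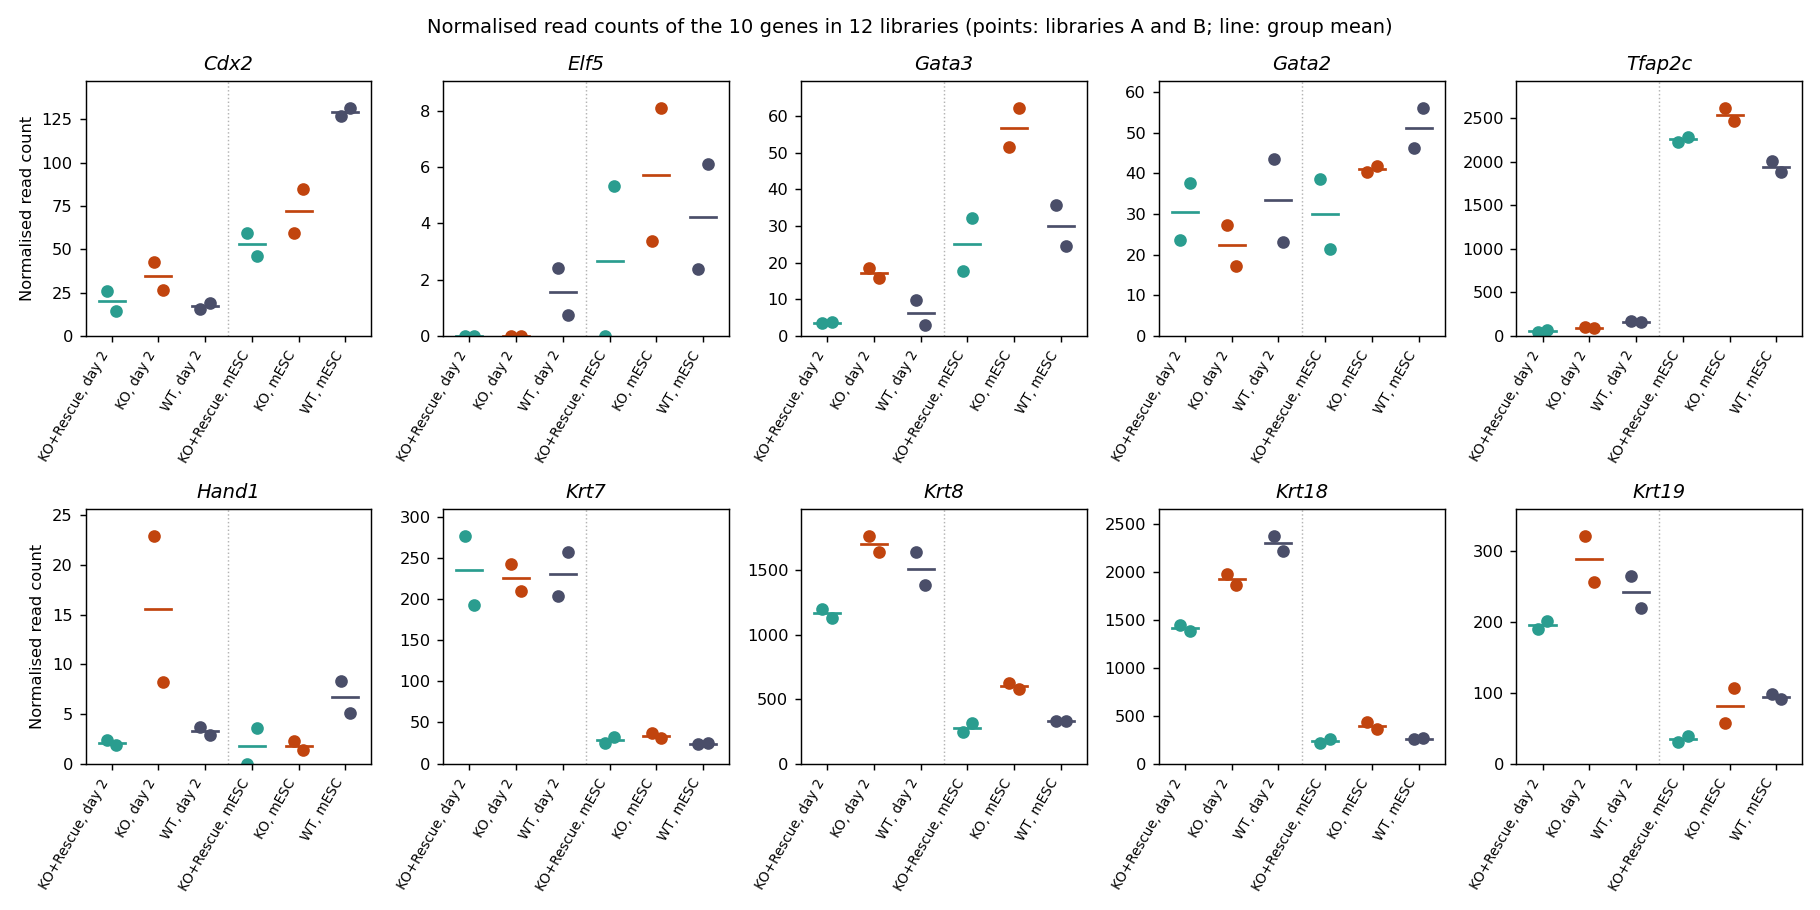
Normalised counts (linear axes from 0) of the 10 genes in the 12 libraries, 1 panel a gene, with a point for each library, a line for the mean of each group of 2, and day 2 left of mESC. Tfap2c fell to between 39.9 and 167 at day 2, against 1880 to 2612 in mESC, while the 4 keratins sit higher at day 2 in every genotype.

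The 4 keratins were present in every library and all were higher at day 2 than among mESC. Krt8 (chr15:101996711-102004342) had 1204 and 1131 normalised counts in KO+Rescue, 1767 and 1643 in KO and 1639.8 and 1386 in WT at day 2, and 243 and 312 in KO+Rescue, 626 and 579 in KO and 333 and 329 in WT mESC. Krt18 (chr15:102028216-102032026), its partner chain and neighbour on the chromosome, had 1451 and 1381 normalised counts in KO+Rescue, 1984 and 1864 in KO and 2378 and 2223 in WT at day 2, and 218 and 253 in KO+Rescue, 431 and 363 in KO and 257 and 265 in WT mESC. For both genes the 6 groups did not overlap, a trait whose share over all genes was not counted, and KO was the highest genotype among mESC. At day 2 WT was highest for Krt18. For Krt8 at day 2 the lower KO library (1643) lay just above the higher WT library (1639.8). Neither gene was called there between KO and WT by limma (Krt8 log2 0.18, adjusted p = 0.588, Krt18 -0.26, 0.353).

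Krt19 (chr11:100140810-100145926) had 190.1 and 201 normalised counts in KO+Rescue, 321 and 257 in KO and 265 and 219 in WT at day 2, and 30.3 and 39.2 in KO+Rescue, 57.1 and 107 in KO and 98.4 and 90.6 in WT mESC. KO and WT overlapped at each stage, and KO+Rescue was lowest at each. Krt7 (chr15:101412403-101427806) had 277 and 194 normalised counts in KO+Rescue, 242 and 209 in KO and 204 and 257 in WT at day 2, and 25.1 and 32.1 in KO+Rescue, 37.0 and 31.0 in KO and 23.7 and 24.4 in WT mESC. Its 3 day 2 groups all overlapped. Per kilobase of transcript at day 2, Krt18 averaged 985 in KO+Rescue, 1339 in KO and 1601 in WT and Krt8 596, 871 and 773 in the same genotypes, while Krt19 averaged 124, 183 and 154 and Krt7 57.5, 55.2 and 56.3. The Krt7 value depends on the length of the transcript model taken.

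Promoters are shown for Krt8 and Krt18, which lie close together on chromosome 15 and changed together, with Krt7 as a keratin on the same chromosome and Cdx2 as a factor that went the other way. RefSeq (GRCm38.p6) promoters were matched for 7 of the 10 members, and the 250 bases before the start of the gene were read 5′ to 3′ along the gene. Capitals mark the motifs searched on both strands, which were GCCNNNGGC for AP-2, GGGCGG for the GC box, TATAAA for the TATA box, GGAATG for TEAD factors, TGANTCA for AP-1 and AGATAA for GATA factors.
Krt8, chr15:102004343-102004592, minus strand: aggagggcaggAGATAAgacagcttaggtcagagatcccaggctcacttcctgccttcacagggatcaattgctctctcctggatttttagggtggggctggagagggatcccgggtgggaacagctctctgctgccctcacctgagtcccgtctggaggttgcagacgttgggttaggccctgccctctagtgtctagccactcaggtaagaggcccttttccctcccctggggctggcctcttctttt
Krt18, chr15:102027966-102028215, plus strand: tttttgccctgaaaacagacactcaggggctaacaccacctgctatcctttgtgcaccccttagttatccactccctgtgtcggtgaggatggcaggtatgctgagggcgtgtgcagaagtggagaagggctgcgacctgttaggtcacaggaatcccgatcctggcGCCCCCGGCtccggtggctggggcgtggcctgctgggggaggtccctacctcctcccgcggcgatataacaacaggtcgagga
Krt7, chr15:101412153-101412402, plus strand: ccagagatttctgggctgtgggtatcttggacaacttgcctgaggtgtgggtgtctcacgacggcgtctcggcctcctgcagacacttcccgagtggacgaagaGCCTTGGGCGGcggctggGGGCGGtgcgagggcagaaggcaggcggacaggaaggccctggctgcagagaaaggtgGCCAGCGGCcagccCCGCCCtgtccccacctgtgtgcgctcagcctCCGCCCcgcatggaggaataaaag
Cdx2, chr5:147307250-147307499, minus strand: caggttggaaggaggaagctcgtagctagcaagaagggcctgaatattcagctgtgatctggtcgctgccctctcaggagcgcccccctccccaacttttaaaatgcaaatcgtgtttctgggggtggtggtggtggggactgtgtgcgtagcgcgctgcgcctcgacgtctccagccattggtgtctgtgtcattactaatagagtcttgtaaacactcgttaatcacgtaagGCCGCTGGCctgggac

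The Krt8 window held 3 CpG dinucleotides and 1 GATA motif, whereas the Krt18 window held 12 CpG and 1 AP-2 motif, so the 2 keratins that changed together shared no searched motif in these windows. The Krt7 window held 16 CpG, 2 AP-2 motifs and 4 GC boxes, of which 1 GC box overlaps an AP-2 motif, and the Cdx2 window held 13 CpG and 1 AP-2 motif. Over 32851 promoter windows of the same length, 13.7% held an AP-2 motif, 32.7% a GC box, 12.4% a TATA box, 12.6% a TEAD motif, 6.75% an AP-1 motif and 9.99% a GATA motif, with a median of 6 CpG. A match describes the letters and marks no site of binding. Tfap2c, Hand1 and Krt19 are named only.

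Day 2 was set against mESC within each genotype, to see what each member did on leaving the stem cell medium. Of the 8 tested members, 7 were called in each genotype: Krt7, Krt8, Krt18 and Krt19 were higher and Tfap2c, Cdx2 and Gata3 lower at day 2, and Gata2 was not called. Over all tested genes the background of calls was large, at 29.2% higher and 29.1% lower in KO+Rescue, 31.4% and 28.7% in KO and 26.6% and 25.3% in WT. The median change of the 8 tested members was 1.06 in KO+Rescue, 0.31 in KO and 0.34 in WT on the log2 scale, beside -0.03, 0.02 and -0.02 over all tested genes. With library totals set equal in place of size factors, the median of all genes moved to 0.34 in KO+Rescue, 0.35 in KO and 0.21 in WT, and the share of calls that were higher to 71.2%, 71.2% and 67.6%, beside 50.1%, 52.3% and 51.2% with size factors.

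Tfap2c changed most. It fell 42.6-fold in KO+Rescue (log2 change -5.41 ± 0.20 SE, adjusted p = 4.22e-10), 26.7-fold in KO (-4.74 ± 0.20, 1.53e-09) and 11.9-fold in WT (-3.58 ± 0.20, 2.74e-08). Cdx2 fell 2.66-fold in KO+Rescue (-1.41 ± 0.37, adjusted p = 0.00582), 2.09-fold in KO (-1.06 ± 0.37, 0.026) and 7.14-fold in WT (-2.84 ± 0.37, 3.81e-05). The WT fall was called in every alternative run. The KO fall was lost without KO mESC library B (adjusted p = 0.176) or KO day 2 library B (0.203), with equal totals (0.125) and with no filter (0.0572), over a range of 0.0119 to 0.203, and the KO+Rescue fall was lost without KO+Rescue day 2 library B (0.0714), over a range of 0.0023 to 0.0714.

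Gata3 fell 5.37-fold in KO+Rescue (log2 change -2.43 ± 0.53, adjusted p = 0.00169), 3.19-fold in KO (-1.67 ± 0.53, 0.0156) and 4.72-fold in WT (-2.24 ± 0.53, 0.00336). The WT change rests on 16 and 4 reads at day 2 and was -2.97 without WT day 2 library A and -1.51 without library B, called in both cases (0.00115 and 0.0389). The KO value was lost without KO mESC library B (0.0846) or without KO day 2 library A (0.0503) or B (0.0786), over a range of 0.000824 to 0.0846. For Gata2 the log2 differences were 0.04 ± 0.43 in KO+Rescue, -0.89 in KO and -0.66 in WT (adjusted p = 0.936, 0.0906 and 0.215). The KO value was called in the fit of the 2 groups alone (0.0493, over a range of 0.0493 to 0.388), and no difference between the 2 GATA genes was tested.

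The keratins rose in every genotype and under every alternative run. Krt18 rose 6.00-fold in KO+Rescue (log2 change 2.59 ± 0.14, adjusted p = 9.55e-09), 4.85-fold in KO (2.28, 2.95e-08) and 8.78-fold in WT (3.13, 3.22e-09). Krt8 rose 4.23-fold in KO+Rescue (2.08 ± 0.15, 1.36e-07), 2.83-fold in KO (1.5, 2.57e-06) and 4.55-fold in WT (2.18, 1.42e-07). Krt7, whose role as a simple epithelial chain is shared with Krt8, rose 7.92-fold in KO+Rescue (2.98 ± 0.27, 9.64e-07), 6.49-fold in KO (2.70, 2.29e-06) and 9.18-fold in WT (3.20, 7.34e-07). Krt19 rose 5.54-fold in KO+Rescue (2.47 ± 0.28, 8.73e-06), 3.64-fold in KO (1.87, 9.49e-05) and 2.54-fold in WT (1.34, 0.0015). The summed level of the surface ectoderm list was 103 to 138 normalised counts in KO+Rescue, 114 to 140 in KO and 185 to 197 in WT at day 2, against 388 to 468 in KO+Rescue, 413 to 438 in KO and 485 to 505 in WT mESC. Of its 8 genes 4 were tested, with 0 called higher and 2 lower at day 2 in KO+Rescue, 1 and 2 in KO and 0 and 3 in WT. Beside them, 26.6 to 31.4% of all tested genes were called higher and 25.3 to 29.1% lower. The part of this list in the keratin levels was not tested. The fibroblast list summed to 5324 to 5848, 4941 to 5497 and 2334 to 3026 at day 2 in the same genotypes, against 1407 to 1622, 1937 to 2342 and 867 to 890 in mESC, and its part in the keratin levels was not tested.

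**Figure D2:**
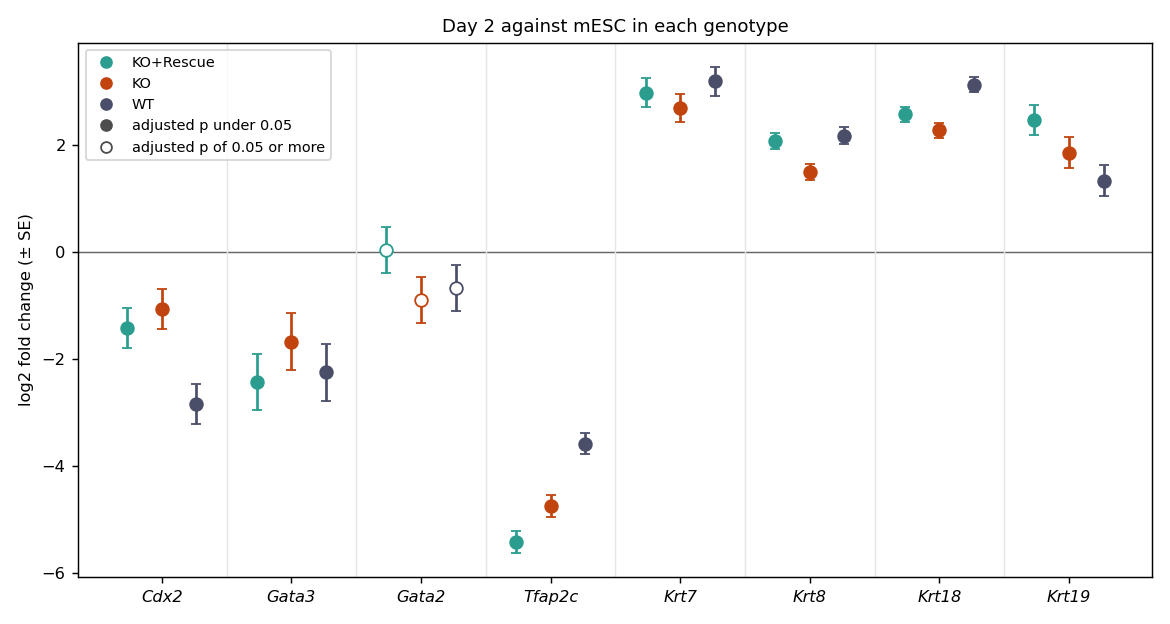
log2 change of the 8 tested members at day 2 against mESC in KO+Rescue, KO and WT, with points for the limma estimate (filled where called), bars for ± 1 SE, and genes along the horizontal axis. The 4 keratins lie above 0 and Tfap2c, Cdx2 and Gata3 below it in each genotype, from -5.41 for Tfap2c in KO+Rescue to 3.20 for Krt7 in WT.

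KO was set against WT to see how the members differed in cells lacking PROSER1. Among mESC, Krt8 was 1.82-fold higher in KO (log2 difference 0.86 ± 0.15, 95% interval 0.54 to 1.19, adjusted p = 0.00446) and Krt18 was 1.51-fold higher (0.60 ± 0.14, 0.30 to 0.90, 0.019). These were 2 of 8 tested members, against 3.23% of all tested genes called higher and 6.26% called lower. The median of the 8 was 0.43 and that of all genes -0.04. Equal library totals moved the median of all genes to -0.25 and the share of calls that were higher to 14.6%, beside 34.0% with size factors, and Krt18 was then at 0.39 (adjusted p = 0.155). Krt18 also lost its call without KO library A (0.132) or WT library A (0.0902) and in the fit of the 2 groups alone (0.149), over a range of 0.00373 to 0.155. Krt8 lost its call in that fit of 2 groups (0.0617) and in no other alternative run, over a range of 2.3e-05 to 0.0617.

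The other members were not called in that comparison. Cdx2 was 72.2 ± 18.1 normalised counts in KO and 129 ± 3.13 in WT (SD, n = 2 each), a log2 difference of -0.85 ± 0.37 with an adjusted p of 0.155. Gata3 was at 0.92 ± 0.53 (0.261), Tfap2c at 0.39 ± 0.20 (0.219), Krt7 at 0.48 ± 0.27 (0.247), Krt19 at -0.27 ± 0.28 (0.534) and Gata2 at -0.30 (0.657). Of 10 fibroblast markers 7 were tested, with 2 called higher in KO mESC and 1 lower. Acta2 and Tagln, which encode smooth muscle contractile proteins, were higher (log2 3.19 ± 0.35 and 1.95 ± 0.23) and Thy1 lower (-1.56 ± 0.20). The summed level of the 10 was 1937 to 2342 normalised counts in KO against 867 to 890 in WT, although the median change of the 7 was -0.25. The collagens Col1a1 and Col1a2 averaged 23.8 and 10.7 in KO against 26.9 and 13.0 in WT. The surface ectoderm list summed to 413 to 438 in KO and 485 to 505 in WT. The part of these levels in the keratin difference was not tested.

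At day 2, Tfap2c was 1.71-fold lower in KO than in WT (log2 difference -0.77 ± 0.20, adjusted p = 0.0449) and no other member was called, against 1.57% of all tested genes called higher and 3.64% called lower. This call was lost without any 1 of the 4 libraries (0.145 without KO A, 0.307 without KO B, 0.136 without WT A, 0.0714 without WT B), with no filter (0.0779) and in the fit of the 2 groups alone (0.129), over a range of 0.000838 to 0.307. Krt7 was at -0.02 (95% interval -0.60 to 0.55), Krt8 at 0.18 (adjusted p = 0.588), Krt18 at -0.26 (0.353) and Krt19 at 0.25 (0.699). Gata3 was at 1.48 ± 0.53 (0.146) and Cdx2 at 0.92 (0.206). The median of the 8 was 0.08 and that of all genes 0.02. With equal totals the median of all genes was -0.09 and 18.9% of calls were higher, beside 30.2% with size factors.

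Whether the KO difference changed with the stage was tested as an interaction, the day 2 difference minus the mESC difference, which calls 1.13% of all tested genes. With limma 0 of 8 members passed, although 4 had an unadjusted p under 0.05, and edgeR called 1 and DESeq2 3. Over all tested genes limma called 173, edgeR 213 and DESeq2 490. The largest terms were 1.77 ± 0.53 for Cdx2 (adjusted p = 0.155), -1.16 ± 0.29 for Tfap2c (0.0842), -0.86 ± 0.20 for Krt18 (0.0604) and -0.69 ± 0.21 for Krt8 (0.173). edgeR called Tfap2c (0.0282), and DESeq2 called Tfap2c (0.000148), Krt18 (0.00427) and Cdx2 (0.0332). Over the alternatives the adjusted p ran from 0.000148 to 0.305 for Tfap2c, 0.00427 to 0.264 for Krt18 and 0.0332 to 0.481 for Cdx2.

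**Figure D3:**
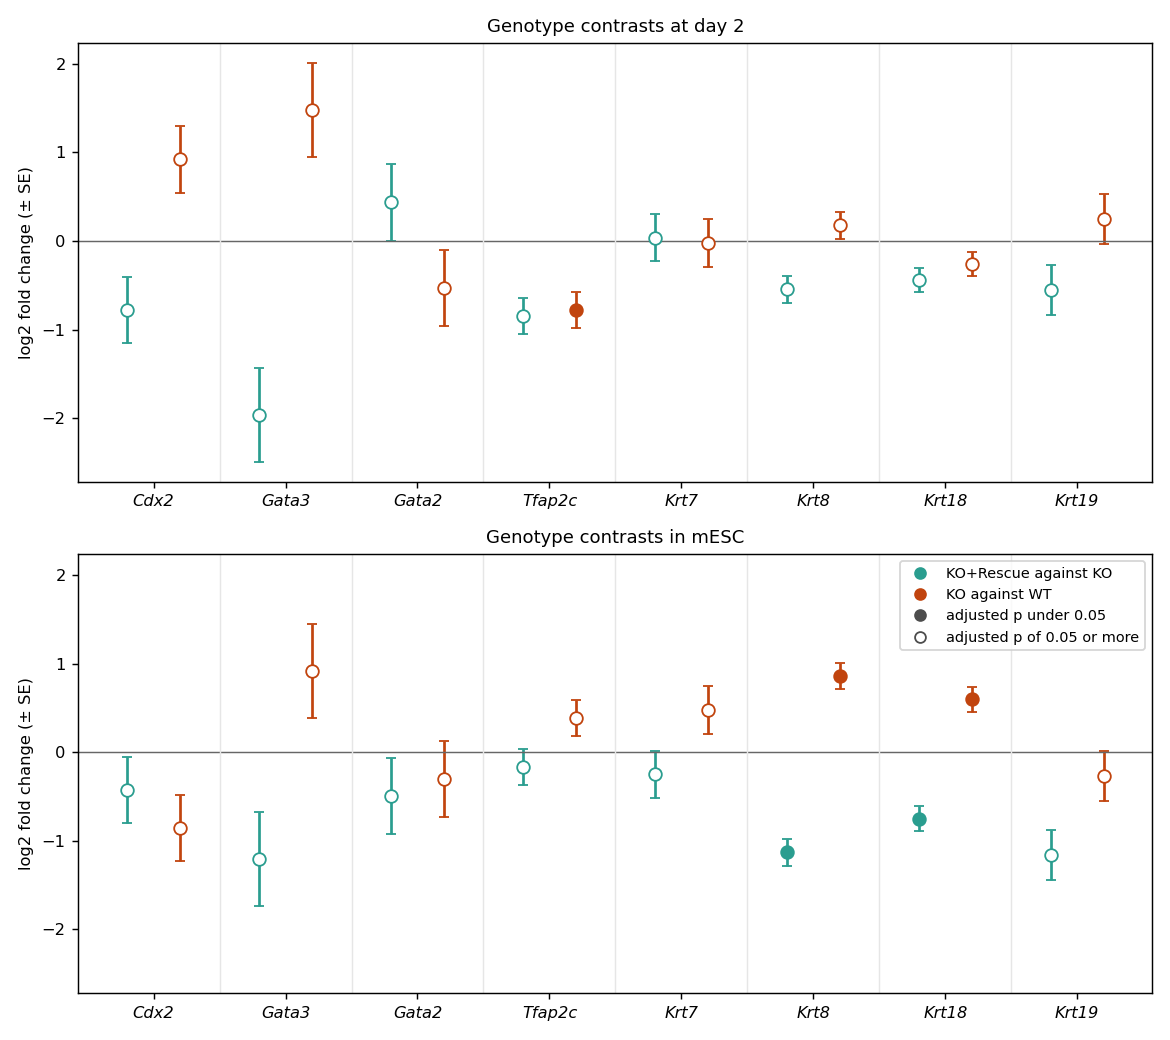
log2 difference of the 8 tested members for KO+Rescue against KO and KO against WT, with 1 panel for day 2 and 1 for mESC, with points for the limma estimate (filled where called), bars for ± 1 SE, and genes along the horizontal axis. Among mESC, Krt8 and Krt18 lie at -1.13 and -0.75 for KO+Rescue against KO and at 0.86 and 0.60 for KO against WT, comparisons that share the KO libraries.

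KO+Rescue was set against KO to see what differed once PROSER1 was put back. Among mESC, Krt8 was 2.19-fold lower in KO+Rescue (log2 difference -1.13 ± 0.15, adjusted p = 0.0041) and Krt18 was 1.68-fold lower (-0.75 ± 0.14, 0.0207), against 0.476% of all tested genes called higher and 1.04% called lower. This comparison shares its KO libraries with that of KO and WT, so the opposite signs of the keratins in both are not independent. Krt18 lost its call without any 1 of the 4 libraries (0.0944 and 0.0543 without KO+Rescue A and B, 0.183 and 0.0654 without KO A and B) and in the fit of the 2 groups alone (0.203), over a range of 0.000856 to 0.203, and Krt8 without KO library A (0.0533) and in that fit of 2 groups (0.117), over a range of 8.47e-08 to 0.117. Krt19 was at -1.16 ± 0.28 (0.0683) and was called by DESeq2 (0.0198) and with equal totals (0.0492), over a range of 0.0198 to 0.402. With a replicate block on the library letters Krt19 was also called (0.0255). Gata3 was at -1.21 (0.346), Cdx2 at -0.43 (0.656), Gata2 at -0.50 (0.652), Krt7 at -0.25 (0.727) and Tfap2c at -0.17 (0.753). The median of the 8 was -0.62 and that of all genes 0.03. With equal totals the median of all genes was -0.09 and 13.9% of calls were higher, beside 31.5% with size factors.

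At day 2, limma called 0 of 8 members between KO+Rescue and KO, although 4 had an unadjusted p under 0.05, and edgeR called 0 and DESeq2 3. Over all tested genes limma called 281, edgeR 355 and DESeq2 742, and the limma shares were 0.502% higher and 1.33% lower. Gata3 was 3.64 ± 0.168 normalised counts in KO+Rescue and 17.1 ± 1.95 in KO (SD, n = 2 each), a log2 difference of -1.96 ± 0.53 (adjusted p = 0.0859), which was called in the fit of the 2 groups alone (0.0229), over a range of 0.0229 to 0.469. Tfap2c was at -0.85 ± 0.20 (0.0548), Krt8 at -0.55 ± 0.15 (0.09) and Krt18 at -0.44 ± 0.14 (0.13). With a replicate block on the library letters, Gata3 (0.0371), Tfap2c (0.0134) and Krt8 (0.0309) were called. DESeq2 called Tfap2c (0.0136), Krt8 (0.015) and Krt18 (0.0372), the fit of the 2 groups alone called Krt8 (0.00853) and Krt18 (0.014), and Tfap2c was called without KO+Rescue library B (-1.22, 0.0192). The adjusted p over the alternatives ran from 0.0134 to 0.414 for Tfap2c, 0.00853 to 0.514 for Krt8 and 0.014 to 0.6 for Krt18. Krt19 was at -0.55 (0.343), Cdx2 at -0.78 (0.309), Gata2 at 0.44 (0.651) and Krt7 at 0.04 (0.958). The interaction of KO+Rescue and stage called 0 of 8 members with limma, where 2 had an unadjusted p under 0.05, and 0 with edgeR and DESeq2, against 0.0847% of all tested genes. The smallest p-values in it were those of Krt8 (0.58, adjusted p = 0.405) and Tfap2c (-0.67, 0.494).

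KO+Rescue was also set against WT, which shares libraries with both comparisons above. Among mESC, Krt19 was 2.69-fold lower in KO+Rescue (log2 difference -1.43 ± 0.28, adjusted p = 0.0095) and Cdx2 2.43-fold lower (-1.28 ± 0.37, 0.0348), against 9.15% of all tested genes called higher and 9.04% lower. Krt8 was at -0.27 (0.226) and Krt18 at -0.15 (0.468), neither called, though Krt8 was called lower with equal totals (-0.59, 0.0293, over a range of 0.0293 to 0.747). Krt19 lost its call without WT library A (0.0681) and in the fit of the 2 groups alone (0.0598), over a range of 0.000551 to 0.0681. Cdx2 lost its call without KO+Rescue library B (0.238), WT library A (0.169) or WT library B (0.0674), with no filter (0.0781) and in the fit of the 2 groups alone (0.0614), over a range of 0.00891 to 0.238. With equal totals the median of all genes was -0.38 and 14.7% of calls were higher, beside -0.06 and 50.3% with size factors.

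At day 2, Tfap2c was 3.07-fold lower in KO+Rescue than in WT (log2 difference -1.62 ± 0.20, adjusted p = 0.000362) and Krt18 1.62-fold lower (-0.70 ± 0.14, 0.0082), against 3.9% of all tested genes called higher and 7.2% lower. The Tfap2c call held under every alternative run, and Krt18 lost its call without KO+Rescue library A (0.0553) or B (0.0803), over a range of 3.08e-05 to 0.0803. Krt8, the partner chain, was at -0.37 (0.127). Tfap2c thus stood at 53.8 ± 19.6 normalised counts in KO+Rescue, 94.4 ± 8.60 in KO and 162 ± 7.47 in WT at day 2 (SD, n = 2 each). Equal totals put the median of all genes at -0.23 and 18.8% of calls higher, beside -0.03 and 35.1% with size factors.

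The keratin pair was also read within each library, where the size factor drops out. Krt8 over Krt18 per kilobase was 0.609 and 0.601 in KO+Rescue, 0.654 and 0.647 in KO and 0.506 and 0.458 in WT at day 2, against 0.815 and 0.904 in KO+Rescue, 1.07 and 1.17 in KO and 0.950 and 0.912 in WT mESC. Every day 2 library lay below every mESC library, with Krt18 above Krt8 in each day 2 library. Within each stage the KO libraries had the highest ratios. Over the 12 libraries, with the mean of each stage taken out, Krt8 and Krt18 correlated at r = 0.89, a description over libraries that share 3 genotypes and size factors.

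Keratin RNA changed its makeup between the stages. The 4 members gave 87.5 and 86.2% of the normalised counts of all 50 keratin genes in KO+Rescue, 89.3 and 88.2% in KO and 88.4 and 84.3% in WT at day 2, and 28.7 and 29.6% in KO+Rescue, 52.0 and 51.5% in KO and 29.9 and 28.5% in WT mESC. Among mESC the KO libraries therefore stood apart. Of the other keratins Krt42, Krt17 and Krt10, all type I chains, gave the most counts, and Krt42 was the highest of them in every mESC library. Krt42 had 638 and 689 normalised counts in KO+Rescue, 501 and 452 in KO and 878 and 869 in WT mESC. It was lower in KO than in WT (log2 -0.88 ± 0.24, adjusted p = 0.0373), as was Krt17 (-1.12 ± 0.21, 0.00665), while Krt8 and Krt18 were higher. Of the 12 other keratins tested, only these 2 were called lower and 0 higher. Beside them, 6.26% of all tested genes were called lower and 3.23% higher.

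Of the 46 other keratin genes 12 were tested. At day 2 against mESC, 2 were called higher and 7 lower in KO+Rescue, 2 and 6 in KO and 3 and 6 in WT. Over all tested genes, 29.2% were called higher and 29.1% lower in KO+Rescue, 31.4% and 28.7% in KO and 26.6% and 25.3% in WT. The log2 changes of Krt42 were -4.49 in KO+Rescue, -3.76 in KO and -3.89 in WT, and those of Krt17 were -2.32, -1.26 and -1.65 in the same genotypes. Krt13, a type I chain of stratified mucosa, was at 0 to 1.5 normalised counts in the day 2 libraries, against 29.1 to 64.0 in the mESC libraries. Krt42, Krt17 and their close relatives have similar sequences and Krt8 has a processed pseudogene, so reads may be shared among such copies.

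**Figure D4:**
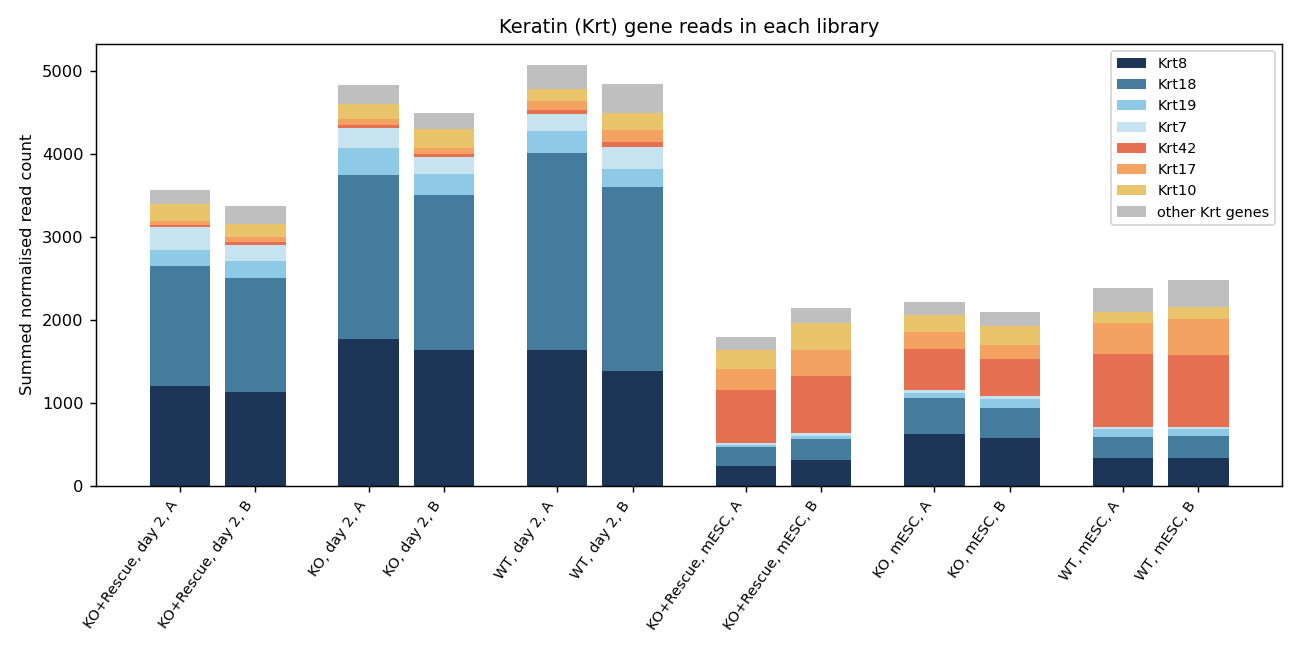
Summed normalised counts of keratin genes as bars stacked from 0 for each of the 12 libraries, with the 4 members in blue, Krt42, Krt17 and Krt10 in warm colours and the rest in grey. The 4 members give 84.3 to 89.3% of keratin counts at day 2, and 51.5 and 52.0% in KO against 28.5 to 29.9% in the other lines among mESC.

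Genes that work with the members were counted from lists set by function. Each gene named for a change between stages is given in the genotype with its smallest adjusted p, which does not make the change particular to that genotype. Of 19 tested filament partners and junction genes, 12 were called higher and 4 lower at day 2 in KO+Rescue, 14 and 4 in KO and 12 and 4 in WT, with medians of 0.95, 1.40 and 0.84. Beside them, 29.2% of all tested genes were called higher and 29.1% lower in KO+Rescue, 31.4% and 28.7% in KO and 26.6% and 25.3% in WT. Cldn7 and Cldn3, claudins of tight junctions, rose in KO+Rescue by 2.87 ± 0.16 and 3.22 ± 0.23 (log2, adjusted p = 1.14e-08 and 1.09e-07), and Cldn6, a claudin of early embryonic epithelia, rose in KO by 2.36 ± 0.17 (1.11e-07). In WT the group means from mESC to day 2 went from 549 to 2774 for Cldn7, 73.0 to 432 for Cldn3 and 848 to 2807 for Cldn6. In KO against WT the same list gave 1 higher and 3 lower among mESC and 1 and 1 at day 2. The shares over all tested genes were 3.23% higher and 6.26% lower among mESC and 1.57% and 3.64% at day 2. The junction genes therefore showed calls in both directions where Krt8 and Krt18 were higher.

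Of 34 other trophoblast genes 25 were tested, and at day 2 against mESC 9 were called higher and 10 lower in KO+Rescue, 6 and 11 in KO and 8 and 10 in WT. Across the genotypes, 26.6 to 31.4% of all tested genes were called higher and 25.3 to 29.1% lower. Bmp4, a ligand that acts on the trophoblast from the inner cells, fell by 5.28 ± 0.23 on the log2 scale in KO+Rescue (adjusted p = 1.47e-09). Its means fell from mESC to day 2 from 812 to 20.1 in KO+Rescue, 522 to 26.8 in KO and 1264 to 39.5 in WT. Lgals3, a galectin, fell by 4.51 ± 0.20 in KO (2.32e-09), and Satb1, a chromatin organiser, rose in KO by 4.21 ± 0.25 (2.02e-08). In KO against WT the list gave 2 higher and 2 lower at each stage, with Eomes among those higher at day 2, and in KO+Rescue against KO 0 and 3 among mESC and 1 and 1 at day 2. For KO against WT the shares over all tested genes were 3.23% higher and 6.26% lower among mESC and 1.57% and 3.64% at day 2. Those for KO+Rescue against KO were 0.476% and 1.04% among mESC and 0.502% and 1.33% at day 2. The list thus had no common direction.

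Of 11 genes of the BMP response 10 were tested, and 3 were called higher and 5 lower at day 2 in KO+Rescue, 2 and 5 in KO and 2 and 5 in WT. The shares over all tested genes were 26.6 to 31.4% higher and 25.3 to 29.1% lower across the genotypes. Id3 and Id1, inhibitors of basic helix-loop-helix factors such as Hand1, had log2 changes of -2.75 ± 0.12 and -4.35 ± 0.19 in KO+Rescue (adjusted p = 1.59e-09 and 1.77e-09), and Smad7, an inhibitor of the pathway, fell by 1.75 ± 0.15 (4.96e-07). In KO against WT 0 were called higher and 3 lower among mESC, and 0 and 1 at day 2. Beside these, 3.23% of all tested genes were higher and 6.26% lower among mESC, and 1.57% and 3.64% at day 2. A list of Yap and Tead factors, which act upstream of Cdx2 in the embryo, also held targets of those factors. Of its 12 tested genes, 6 were called higher and 1 lower at day 2 in KO+Rescue, 6 and 3 in KO and 4 and 3 in WT, beside the same shares over all tested genes. Tead4, the family member needed for the trophectoderm, fell by 3.46 ± 0.31 in KO+Rescue (8.94e-07), while Tead2 rose in KO by 2.06 ± 0.13 (3.65e-08) and Ajuba, a LIM protein of the pathway, rose in KO+Rescue by 1.00 ± 0.15 (0.000112).

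Of the GATA and AP-2 relatives, 2 of 4 were tested in each family. In each family 1 of the 2 was called higher at day 2 than in mESC in every genotype, beside 26.6 to 31.4% of all tested genes. Gata4, a factor of primitive endoderm and mesoderm, was higher at day 2 than in mESC in KO (log2 change 1.85 ± 0.40, adjusted p = 0.0014), and was higher in KO than in WT at day 2 (1.71 ± 0.40, 0.0252). Among the AP-2 genes, Tfap2e rose at day 2 in KO by 2.81 ± 0.50 (0.00037) and Tfap2a, a neural crest and ectoderm factor, fell by 1.60 ± 0.54 in WT (0.0236). Their highest values in any mESC library were 8.14 normalised counts for Tfap2e and 49.9 for Tfap2a.

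For each tested member the genes with the most similar pattern within stages were listed over the 12 libraries, among 12333 genes averaging at least 50 normalised counts. The nearest were Mbtd1 for Cdx2 (r = 0.86), H13 for Gata3 (0.95), Aldh1a2 for Gata2 (0.89), St8sia1 for Tfap2c (0.94), Nudt16 for Krt7 (0.91), Pter for Krt8 (0.93), Cd68 for Krt18 (0.94) and Cdh10 for Krt19 (0.93). Mex3b, which encodes an RNA-binding protein, was the second for both Krt8 and Krt18 (0.93 each), and no other gene was shared between the lists of 2. These values describe 12 libraries that share genotypes and size factors.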

How the data were processed

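RNA was extracted with RNeasy columns and made into libraries with the NEBNext Ultra II Directional kit. Reads were trimmed with Trimmomatic and aligned with STAR to mm10, reads on the Y chromosome were removed, and read pairs were counted per gene with featureCounts. The versions, the strand setting and the treatment of reads with several matches are not given in the sources used here. The deposited signal values are counts the authors divided by DESeq2 size factors. Whole reads were recovered from 100% of the values (tolerance 0.001), and columns that belong to no sample numbered 0. Genes with a mean of at least 10 were tested with limma 3.58.1 (trend, 6 group means, 6 residual and 6.92 prior degrees of freedom) in R 4.3.3 on log2(normalised count + 1), two-sided, with Benjamini-Hochberg adjustment over all tested genes, in 11 contrasts. Alternatives were edgeR 4.0.16 and DESeq2 1.42.0 on the recovered reads, a pseudocount of 0.5, no filter, equal library totals, only the groups of a contrast, a replicate block and leaving out each library. The steps were tested on simulated data. Lengths came from GENCODE canonical transcripts, positions and promoters from RefSeq GRCm38.p6. The members and lists were chosen with earlier results of these data known. All members were named, and of each context list at most 3 genes, those with the smallest adjusted p in a comparison of stages, of KO and WT or of KO+Rescue and KO. Acta2, Tagln, Thy1, Eomes, T and the Krt42, Krt17 and Gata4 values in further comparisons were chosen after their values were seen, as was Krt10.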

Additional observations from a re-analysis of the deposited data

How the results depend on the processing

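With 2 libraries a group, the 30 calls of members over the 11 comparisons differed in how firmly they stood. None reversed, and all 30 held with edgeR, DESeq2 and a pseudocount of 0.5, while 2 were lost with equal library totals, 3 with no filter, 7 in fits of only the groups compared and 23 of 120 when 1 library was left out. Further calls also appeared, and the number of members called changed as follows. DESeq2 called 3 at each stage in KO+Rescue against KO and 3 in the interaction of KO and stage, in which edgeR called 1. Over all tested genes DESeq2 called 386 in mESC, 742 at day 2 and 490 in the interaction, beside 232, 281 and 173 with limma. For that interaction edgeR called 213. With no filter 0 were called in KO against WT at day 2 and 1 in KO+Rescue against WT in mESC. In mESC, equal totals called 1 in KO against WT, 3 in KO+Rescue against KO (Krt19 gained) and 3 in KO+Rescue against WT (Krt8 gained). Over all tested genes they called 1608, 165 and 4563 in that order, beside 1455, 232 and 2790 with size factors. The counts over all genes in the other alternatives are not given here. Fits of only the groups compared called 0 in KO against WT in mESC and at day 2, 0 in mESC and 3 at day 2 in KO+Rescue against KO, and 0 in KO+Rescue against WT in mESC, and added Gata2 at day 2 in KO. Leaving out 1 library gave, at day 2 and in mESC, 0 to 0 and 1 to 2 members in KO against WT, 0 to 1 and 0 to 1 in KO+Rescue against KO, and 1 to 2 and 0 to 2 in KO+Rescue against WT. It gave 6 to 7 in KO+Rescue, 5 to 7 in KO and 7 to 7 in WT for day 2 against mESC, and 0 to 0 in both interactions. Where a fit held fewer samples that is its construction, and otherwise the cause was not tested.

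With a replicate block on the library letters all 30 calls held, and the block called 3 members in each stage of KO+Rescue against KO, with Gata3 (adjusted p = 0.0371), Krt8 (0.0309) and Tfap2c (0.0134) gained at day 2 and Krt19 (0.0255) gained in mESC. In the interaction of KO and stage it called 2, Tfap2c (0.0247) and Krt18 (0.0203). Deviations of libraries with the same letter correlated between groups at 0.12 to 0.17 for the 3 pairs of mESC groups, -0.05 to 0.06 for the 3 pairs of day 2 groups and 0.41 between WT day 2 and WT mESC. WT day 2 also correlated with KO+Rescue mESC at 0.23 and with KO mESC at 0.15, while the other pairs across stages ran from -0.00082 to 0.063. No label ties the letters to a shared batch and the values between day 2 groups stay under 0.1, so the letters were not taken to pair the libraries of the series. With no filter, limma also called Elf5 lower (adjusted p = 0.021) and Hand1 higher (0.0239) at day 2 against mESC in KO, where the fitted size rests on few reads. Depth limits Elf5 and Hand1, with at most 8.09 and 22.9 normalised counts in any library.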
